A study of Ovis aries with 6 samples.

Results

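CYP1A1 and 4 other genes of foreign-compound and aldehyde metabolism, CYP3A24, ALDH1A1, UGT1A9 and LOC101104557, were followed in sheep skin in a comparison of Aohan fine wool with small tail Han animals. The array carried 6 probes for these 5 genes among its 15008 probes, and it named 476 genes by RefSeq accession. CYP1A1, CYP3A24, ALDH1A1 and UGT1A9 were taken at every probe with a RefSeq mRNA of the gene, and LOC101104557 at the probe that the study's supplementary table gives that name. The set was chosen by the measured signal difference between the breeds on these same arrays, so the breed values of the 5 genes are a description and carry no test.

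Body side skin came from 3 Aohan animals, a breed with fine wool, and 3 small tail Han animals, a breed with coarse wool, each group with 1 ram and 2 ewes. All animals were 12 months old, were reared in pens with no treatment named, and gave about 1 cm2 of full-thickness skin in the growth phase of the follicles. Cy3-labelled RNA of each sheep was hybridised to 1 Agilent sheep array, and the array number limits the precision. The sheep of a breed shared 1 sire, and each breed had its own scan session, so that breed, sire and scan session cannot be told apart. The labels do not say which animal was the ram, and sex was not modelled.

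Enzymes of foreign-compound metabolism work in steps. Cytochrome P450 enzymes such as CYP1A1 and CYP3A24 add oxygen to a molecule, aldehyde dehydrogenases and aldehyde oxidases turn aldehydes into acids, and UDP-glucuronosyltransferases such as UGT1A9 attach glucuronic acid so that the product can leave the cell. In mammals CYP1A1 is a standard target of the aryl hydrocarbon receptor, and in skin it can be expressed in the epidermis and the sebaceous gland. ALDH1A1 also makes retinoic acid, a regulator of epidermal and follicular growth, from retinal.

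The array sorted the 5 genes into lower and higher ones in Aohan fine wool sheep. CYP1A1 lay 15.9-fold lower, LOC101104557 lay 10.2-fold lower with a size that depended on its dim Aohan signals, ALDH1A1 and CYP3A24 lay lower by less than 2-fold, and UGT1A9 lay higher at both of its probes. Signals are given as log2 of the processed intensity relative to the 75th percentile of all non-control probes on the same array, and changes as Aohan minus small tail Han on this scale, with their standard error (SE) from limma. At each of the 6 probes the 3 sheep of 1 breed lay above the 3 of the other, and the same held for 34.2% of the 12480 probes tested. Of the 6 probes, 4 were lower in Aohan sheep without overlap, as were 16.4% of all tested probes, and 2 were higher, as were 17.8%. The values of these genes chose the set, so nothing is read from these shares.

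**Figure D1:**
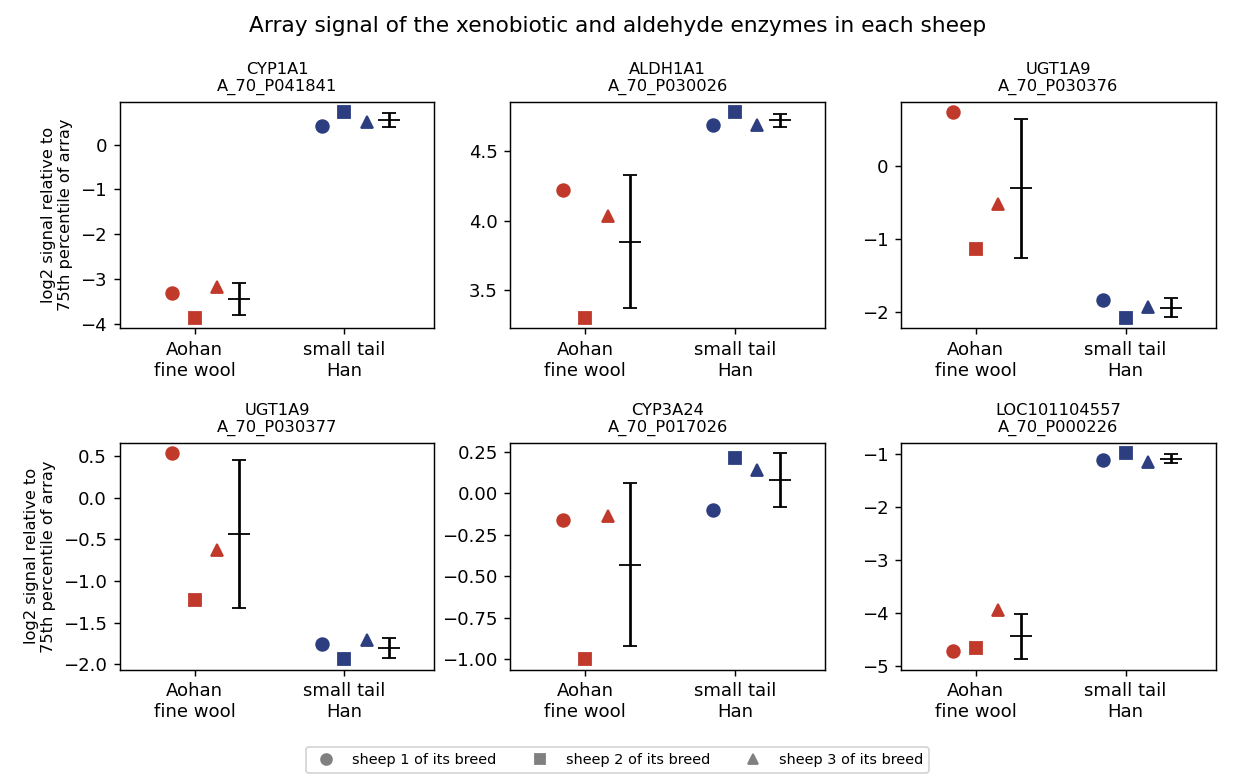
Log2 signal relative to the 75th percentile of the array (vertical axes, scaled separately per panel) at each of the 6 probes, in Aohan fine wool sheep (red) and small tail Han sheep (blue), with a marker for each sheep and the mean and SD (n = 3) in black. The breeds lie 3.59 apart at their nearest sheep for CYP1A1 and 0.04 apart for CYP3A24, and UGT1A9 is the gene with Aohan sheep on top.

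CYP1A1, at probe A_70_P041841, showed the widest gap of the 5 genes between the breeds. Its log2 signal was -3.30, -3.86 and -3.17 in the 3 Aohan sheep, against 0.42, 0.72 and 0.51 in the 3 small tail Han sheep. The nearest sheep of both breeds were 3.59 apart, more than 5 times the 0.69 spanned by the Aohan sheep. The means were -3.44 ± 0.36 in Aohan sheep and 0.55 ± 0.16 in small tail Han sheep (SD, n = 3 each), a change of -3.99 (SE 0.21), or 15.9-fold lower in Aohan sheep. In intensity units before scaling, the probe read 112 to 141 on the Aohan arrays and 2494 to 3080 on the small tail Han arrays. It was well above background on all 6 arrays, so the fold rests on measured signal in both breeds. Its size still depended on the background, and the change was -3.38 when the background was corrected by normexp. Of all 12480 tested probes, 39 (0.312%) had a change below -3.

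LOC101104557, which the study's table describes as an aldehyde oxidase-like gene, followed CYP1A1 in size. Aldehyde oxidases oxidise aldehydes and nitrogen-containing ring compounds. At A_70_P000226 the Aohan sheep had -4.71, -4.66 and -3.94, against -1.11, -0.99 and -1.16 in small tail Han sheep. All 3 small tail Han sheep fell within 0.17 of each other, while the Aohan sheep spanned 0.77. The change was -3.35 (SE 0.23), 10.2-fold lower in Aohan sheep, with means of -4.44 ± 0.43 in Aohan sheep and -1.09 ± 0.09 in small tail Han sheep (SD, n = 3 each). Here the Aohan end of the scale was dim. The intensities were 42.0, 81.2 and 73.7 on the Aohan arrays, where the spot of sheep 1 was not well above background and its scanner error came to 28.2% of the signal, against 782 to 1074 on the small tail Han arrays. The change was -3.21 without that array, and -2.42 when the background was corrected by normexp.

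ALDH1A1 had bright spots in all sheep, with the breeds closer together. Its probe A_70_P030026 gave 4.22, 3.30 and 4.03 in Aohan sheep, against 4.69, 4.78 and 4.69 in small tail Han sheep. The small tail Han sheep were almost level, with an SD of 0.05, and every Aohan sheep lay below them, the nearest by 0.46. The change was -0.87 (SE 0.25), 1.82-fold lower in Aohan sheep. Sheep 2 was the lowest of the Aohan sheep, and without its array the change was -0.59.

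CYP3A24 belongs to the CYP3A subfamily, which in humans oxidises a broad range of drugs and steroids. Its breeds barely parted, with -0.16, -1.0 and -0.14 in Aohan sheep and -0.10, 0.21 and 0.14 in small tail Han sheep at A_70_P017026. Aohan sheep 3 stood 0.04 from small tail Han sheep 1, Aohan sheep 1 lay just below both, and Aohan sheep 2 stood alone. The change of -0.52 (SE 0.24) was about as large as the SD of the Aohan sheep, 0.49. It was -0.23 without Aohan sheep 2, so that its size moved by over 1.5 times with 1 array.

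UGT1A9 was the member with the opposite direction. A_70_P030376 gave 0.73, -1.14 and -0.53 in Aohan sheep, against -1.83, -2.08 and -1.93 in small tail Han sheep. The second probe, A_70_P030377, gave 0.53, -1.23 and -0.63 in Aohan sheep, against -1.76, -1.94 and -1.71 in small tail Han sheep. Both probes put Aohan sheep 1 far above the other Aohan sheep and Aohan sheep 2 nearest to small tail Han. The changes were 1.63 (SE 0.40) and 1.36 (SE 0.38), 3.10-fold and 2.57-fold higher in Aohan sheep. They were 1.11 and 0.88 without Aohan sheep 1, whose intensities of 1829 and 1595 compare with 929 and 875 in Aohan sheep 2 and with 785 and 732 in Aohan sheep 3. The log2 difference between the probes on 1 array was 0.09 to 0.20 in Aohan sheep and -0.22 to -0.07 in small tail Han sheep. Both probes carry the same transcript and are not independent of each other. In the sheep RefSeq annotation (assembly ARS-UI_Ramb_v3.0), UGT1A1, UGT1A3, UGT1A4 and UGT1A6 are listed next to UGT1A9. Mammalian UGT1A genes share their last exons, and the place of the probes in the transcript was not known here, so signal from other UGT1A transcripts cannot be told apart from that of UGT1A9.

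The individual sheep did not keep 1 order across the 5 genes. Aohan sheep 2 was the lowest Aohan sheep at 5 of the 6 probes, a position it held at 47.4% of all tested probes. At LOC101104557 the lowest was Aohan sheep 1, the sheep with the highest UGT1A9. Among small tail Han sheep, sheep 2 was the highest for CYP1A1, ALDH1A1, CYP3A24 and LOC101104557 and the lowest at both UGT1A9 probes. All 6 probes had a larger SD in Aohan sheep (0.36 to 0.95) than in small tail Han sheep (0.05 to 0.16), as did 56.8% of all tested probes. The median SD over all tested probes was 0.27 in Aohan sheep and 0.23 in small tail Han sheep.

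The Aohan arrays also differed in their overall scale. The 75th percentile of Aohan sheep 2 was 2048, which is 1.86 times that of Aohan sheep 1 and 1.81 times that of Aohan sheep 3, while the small tail Han arrays ranged from 1747 to 2309. Before scaling, CYP3A24 read 987, 1025 and 1028 on the Aohan arrays, a coefficient of variation of 2.26%, against 2157, 2124 and 1925 on the small tail Han arrays, where it was 6.09%. ALDH1A1 varied more, with 20581, 20217 and 18422 on the Aohan arrays (5.86%), against 59420, 50332 and 44995 on the small tail Han arrays (14.1%). For these 2 genes the Aohan sheep were the less variable group in intensity and the more variable one after scaling. UGT1A9 stayed more variable in Aohan sheep on both scales, with coefficients of variation of 47.9% and 43.3% in Aohan sheep against 23.1% and 18.8% in small tail Han sheep.

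**Figure D2:**
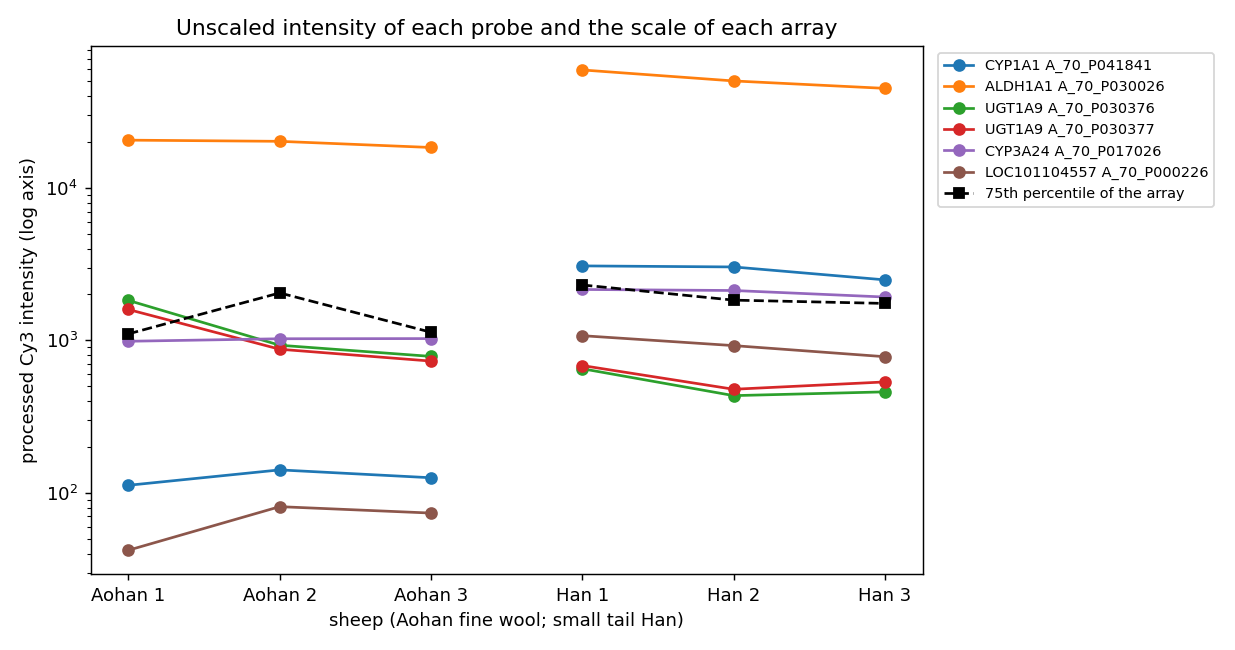
Processed Cy3 intensity of the 6 probes (coloured points) and the 75th percentile of each array (black squares) on a log axis, for the 3 Aohan fine wool sheep and then the 3 small tail Han sheep. CYP3A24 and ALDH1A1 stay nearly level over the Aohan arrays, while the 75th percentile of Aohan sheep 2 stands at 2048 between 1103 and 1131.

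Without any scaling, all tested probes had a median change of -0.49, and the changes of the 5 genes shifted with it. Relative to that median they were -4.02 for CYP1A1, -3.38 for LOC101104557, -0.89 for ALDH1A1, -0.54 for CYP3A24, and 1.61 and 1.34 for UGT1A9. These had to lie near the scaled changes, and were within 0.03 of them, because scaling subtracts 1 value per array from every probe. The closeness is therefore no check on the scaling. The breed difference of every probe kept its direction under each of the other normalizations, backgrounds and filters that could measure it and without any 1 array. Leaving out an array could not reverse it, because the breeds do not overlap at these probes. Filters and the block by replicate number leave the change of a probe as it is.

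**Figure D3:**
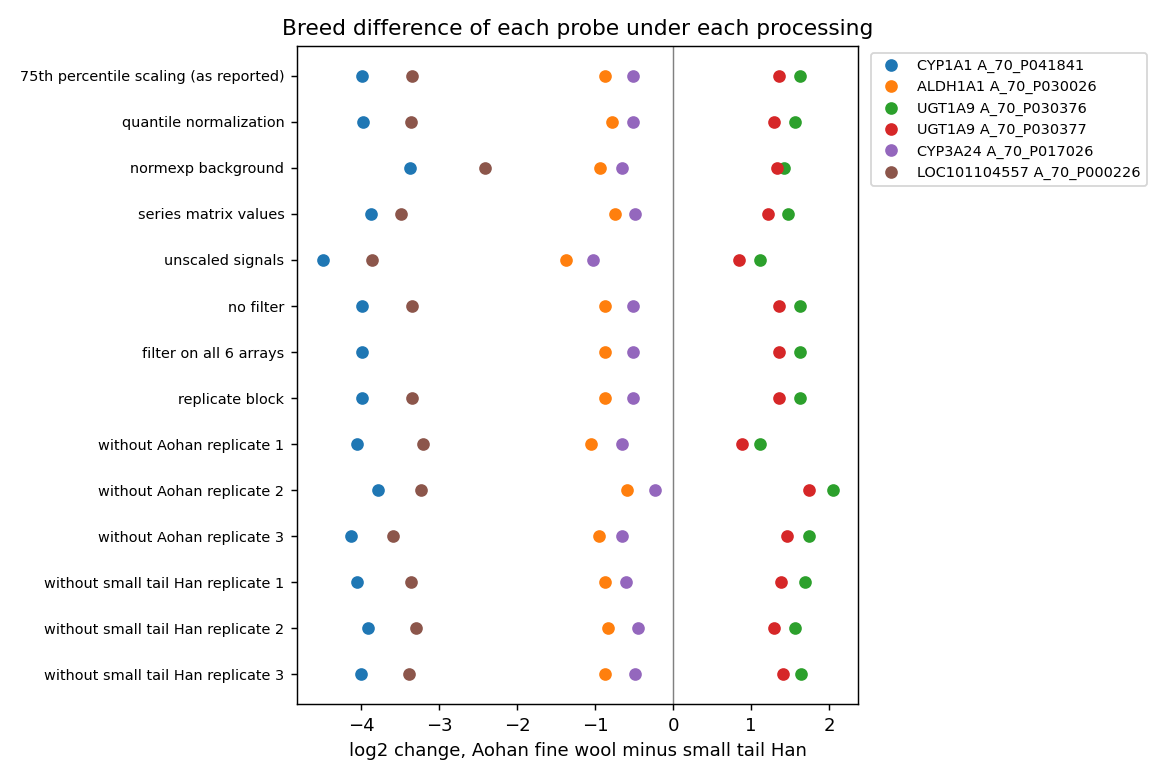
Log2 change (Aohan fine wool minus small tail Han, horizontal axis) of the 6 probes under each processing alternative (rows), with unscaled signals not set relative to their median of -0.49. No probe crosses 0, and CYP3A24 comes nearest, at -0.23 without Aohan replicate 2. LOC101104557 has no point in the row for probes above background on all 6 arrays, which leaves it out.

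Among named genes outside the set, the 5 with profiles nearest to that of CYP1A1 were listed, at whatever distance they lay. Each probe's 6 values were centred on their mean, and the root mean square difference from CYP1A1 was taken over the 6 arrays. This distance is made up mostly of the breed difference, by which both CYP1A1 and LOC101104557 were chosen, so it describes the values and adds nothing to them. LOC101104557 was at 0.39, with 9 tested probes nearer, ALDH1A1 was at 1.57, CYP3A24 at 1.74 and UGT1A9 at 2.85 and 2.71. Of the other genes with a RefSeq name the nearest was TTR (transthyretin, a carrier of thyroid hormone and of the retinol-binding protein), at 0.55. SLC2A5, a fructose transporter, was at 0.81, KLK1 (tissue kallikrein, a protease) at 0.90, ISG15 (an interferon-induced ubiquitin-like protein) at 1.14 and CLOCK (a circadian transcription factor) at 1.20. SLC2A5, for example, had -3.48, -3.85 and -3.65 in Aohan sheep, against -1.65, -1.0 and -1.04 in small tail Han sheep. TTR and CLOCK were each well above background on 1 of 3 Aohan arrays. ISG15 and CLOCK, the furthest of the 5, changed by -2.07 and -1.76, against -3.99 for CYP1A1.

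Genes listed around the same metabolism passed between the breeds about as often as the array as a whole. None of those tested was a P450, aldehyde-oxidising or conjugating enzyme, so the count does not cover these steps. The comparison used limma with Benjamini-Hochberg adjustment over all 12480 tested probes, in which 15.2% of them passed at an adjusted p under 0.05, 945 (7.57%) as higher and 948 (7.6%) as lower in Aohan sheep. Of 208 genes listed for P450 enzymes, aryl hydrocarbon receptor signalling, aldehyde oxidation, conjugation, retinoid handling, antioxidant defence and drug transport, 12 had a RefSeq name on the array and were tested. None passed as higher, 2 passed as lower, and 2 had an unadjusted p under 0.05, so that the 2 of 12 that passed lay near the 15.2% of all tested probes. By the methods' t-test with the same adjustment the counts were 0 and 2. TTR, 1 of the 2 genes that passed, met the filter through the breed in which it was high. Under the filter on all 6 arrays, 1 of 10 genes passed, against 1755 of 10235 tested probes. The median change of the 12 genes was -0.17, against 0.025 over all tested probes, and the median size of change was 0.23, against 0.32. For the receptor pathway, aldehyde oxidation and conjugation the array named no gene other than the 5, so AHR itself and the other enzymes of these steps were not analysed here.

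Both genes that passed, TTR and DGAT1, were from the list for retinoid handling. TTR had -5.04, -6.70 and -6.73 in Aohan sheep, against -2.56, -2.42 and -2.48 in small tail Han sheep, a change of -3.67 (SE 0.43, limma adjusted p = 0.000869). TTR was well above background on all 3 small tail Han arrays but on 1 of 3 Aohan arrays, so it entered the test through the breed in which it was high, and the size of its change is uncertain. The change was -1.78 with normexp. DGAT1, which makes triglycerides and can also esterify retinol, had -0.74, -0.60 and -0.59 in Aohan sheep, against -0.03, -0.06 and 0.13 in small tail Han sheep. The change of DGAT1 was -0.65 (SE 0.14, limma adjusted p = 0.0159), and its dimmer probe did not pass (adjusted p = 0.0831). DGAT1 did not pass without Aohan sheep 3 (adjusted p = 0.0554), small tail Han sheep 2 (0.0655) or small tail Han sheep 3 (0.0833). FABP5, a fatty acid-binding protein that can carry retinoic acid, changed by 0.11 (adjusted p = 0.787).

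The list of P450 enzymes with their partners, the antioxidant genes and the drug transporters were each tested at 3 genes. In the first list POR, CYB5A and CYB5R3 had no RefSeq name on the array, and none of the genes tested was a P450 enzyme. For prostaglandin synthesis, PTGS1 had a change of -0.50 (SE 0.23, adjusted p = 0.180) and PTGS2 one of -0.26 (adjusted p = 0.376), and the lactonase PON2 was at 0.10 (adjusted p = 0.772). Thioredoxin (TXN) was at -0.04, ferritin heavy chain (FTH1) at -0.15 and the metallothionein MT3 at 0.15, with adjusted p of 0.924, 0.793 and 0.746. The efflux pumps ABCB1 and ABCG2 were at 0.40 (adjusted p = 0.289) and -0.19 (adjusted p = 0.732), and the prostaglandin carrier SLCO2A1 was at -0.56 (adjusted p = 0.282). SOD2, mitochondrial superoxide dismutase, is named on this array by the study's table of differing probes alone and is outside these counts. It had -0.34, 0.20 and -0.17 in Aohan sheep, against -1.61, -2.12 and -1.85 in small tail Han sheep. SOD2 lay higher in Aohan sheep by 1.76 (SE 0.20), a value that carries no test because that table lists differing probes.

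Of the other cytochrome P450 genes that the array names, 4 of 6 were tested and 1 passed as higher in Aohan sheep, where 7.57% of all tested probes did. CYP17A1, of steroid synthesis, had 1.64, 1.46 and 1.86 in Aohan sheep, against 0.18, 0.49 and 0.50 in small tail Han sheep, a change of 1.27 (SE 0.17, limma adjusted p = 0.00172). On unscaled signals its change was 0.76 and did not pass (adjusted p = 0.0697). CYP2J, a fatty acid epoxygenase, was at -0.35 (adjusted p = 0.245) and at 0.37 at its dimmer probe (adjusted p = 0.451). CYP4F21 was at -0.02 (adjusted p = 0.962) and CYP11B1 at -0.26 (adjusted p = 0.656). CYP11A1 and CYP19, which begin steroid synthesis and make oestrogens, were well above background on at most 1 array per breed and were not tested. PGD, ME1 and IDH1 supply NADPH, which P450 enzymes consume. They were at -0.17 for PGD, -0.36 for ME1 and 0.05 for IDH1, and none of these 3 passed (adjusted p of 0.486 or more, and no unadjusted p under 0.05).

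**Figure D4:**
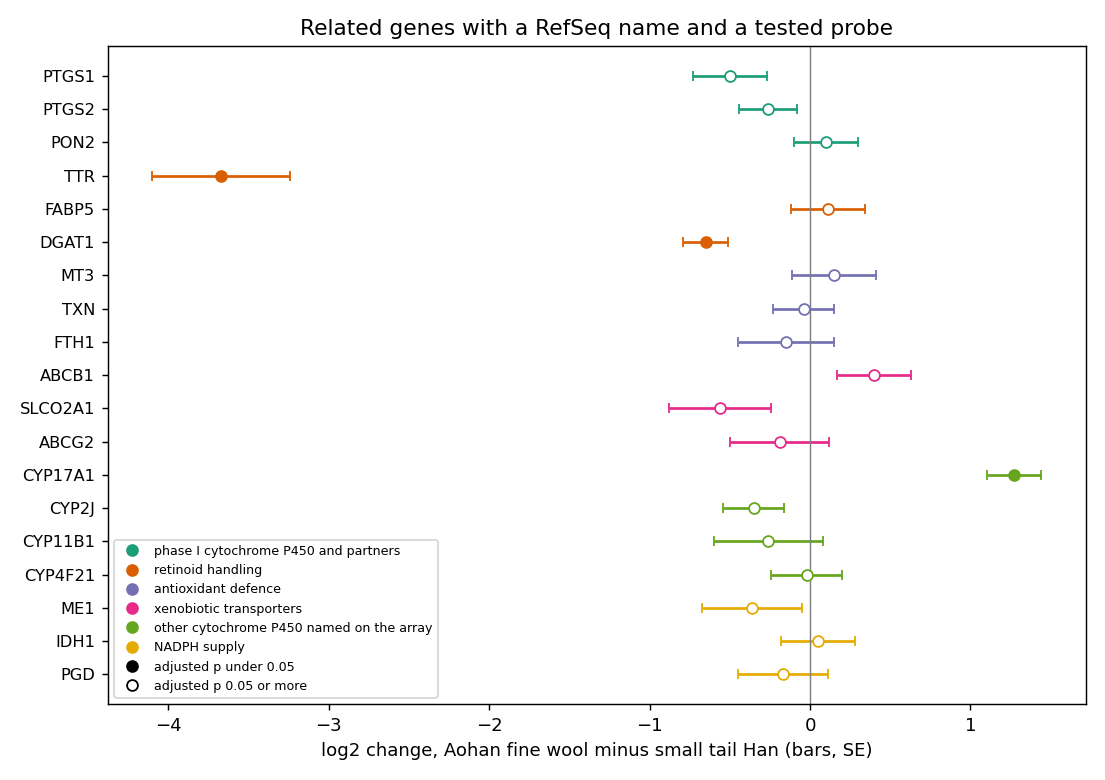
Log2 change (Aohan fine wool minus small tail Han, horizontal axis; bars, SE) of the tested genes of related metabolism, 1 probe per gene and coloured by list, with filled points at a limma adjusted p under 0.05. TTR at -3.67 and DGAT1 at -0.65 lie below 0 and CYP17A1 at 1.27 above it as filled points, while the other genes are open.

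Whole skin holds many cell types, and fewer cells of a type cannot be told apart from less RNA per cell. The wool follicle keratins KRT25, KRT27 and KRT35 and the dermal proteoglycan DCN were well above background on all 6 arrays, as skin should have them, and none of the 3 keratins passed. The counts of markers that follow stand against 7.57% of all tested probes that passed as higher and 7.6% as lower. For dermal fibroblasts, 5 of 15 listed markers were tested and 1, SERPINF1, passed as higher with a change of 1.26 (limma adjusted p = 0.0110). SERPINF1 did not pass on unscaled signals, by the methods' t-test or without small tail Han sheep 2. DCN, BGN, TIMP1 and MMP2 were at -0.08, 0.16, 0.15 and -0.18, none of them passing. For the sebaceous gland, 7 of 21 listed markers were tested, 0 passed as higher and 1, the desaturase SCD5, passed as lower with a change of -1.05 (limma adjusted p = 0.0272). The summed level of these markers, mostly from SQLE, was 5.33 to 6.17 in Aohan sheep and 5.52 to 5.93 in small tail Han sheep. SCD was above background in no sheep. ACACA, PLIN5, SQLE and PPARG were at 0.45, 0.12, 0.10 and 0.04, and PLIN2 and MC5R at -0.16 and -0.55, none of them passing. SCD5 did not pass by the methods' t-test, without the intensity trend, or without Aohan sheep 2 or small tail Han sheep 2 or 3. Its adjusted p was up to 0.157 over the alternatives. Of 8 leukocyte markers 4 passed as higher (ITGB2, CD3D, CD3E and LYZ), and CD4 was above background on at most 1 array. CD14, LCK and ITGAM were at 0.19, 0.34 and 0.88 and did not pass. The summed level of the 8 markers, mostly from CD3E and CD3D, was 3.08 to 3.34 in Aohan sheep and 2.11 to 2.74 in small tail Han sheep. None of ITGB2, CD3D, CD3E and LYZ passed on unscaled signals or by the methods' t-test. Without small tail Han sheep 2, ITGB2, CD3D and CD3E did not pass. CD3D passed in 6 of 15 alternatives, and was lost without any 1 of the Aohan sheep or small tail Han sheep 1 too. The second CD3D probe, at 0.73, did not pass (limma adjusted p = 0.0880). CD1D went the other way, with a change of -1.36 (limma adjusted p = 0.00138) at its dimmer probe and -0.84 (adjusted p = 0.0502) at the brighter one that stood for it. Of 2 muscle markers the smooth muscle gene CNN1 passed as lower, though not by the methods' t-test. MB was at 0.25 and did not pass (limma adjusted p = 0.572). Their summed level, almost all from CNN1, was 3.87 to 4.61 in Aohan sheep and 5.36 to 5.83 in small tail Han sheep. Of 4 liver markers TTR, dim in Aohan sheep, and AHSG passed as lower. AHSG did not pass by the methods' t-test or without small tail Han sheep 2 or 3. The second AHSG probe, at -0.63, did not pass (limma adjusted p = 0.163). SERPINA1, at 0.18, and ALB, at -0.14 (0.74 at its dimmer probe), did not pass. The summed levels, mostly from SERPINA1, were 3.41 to 3.72 in Aohan sheep and 3.53 to 3.66 in small tail Han sheep. The part of these cell types in the differences of the 5 genes was not tested.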

How the data were processed

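RNA from skin of 3 Aohan fine wool and 3 small tail Han sheep was measured on 1-colour arrays. Per the file headers, spots were read with Feature Extraction 10.5.1.1, and the authors deposited background-corrected intensity values for every spot, with no normalization between arrays. A deposited matrix gives log2 values after a normalization whose method is not given in the sources used here. A multiplicative surface correction is recorded for the arrays other than small tail Han 2 and 3.

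Control spots and spots with outlier marks (120 probes, none of the 6 studied) were dropped, repeat spots were averaged by probe, and each array's 75th percentile was subtracted on the log2 scale. No spot was saturated. Testing was limited to probes that 3 or more of the 6 arrays marked as well above background and that had 2 or more values in each breed, and used limma 3.58.1 in R 4.3.3 (intensity trend, two-sided, Benjamini-Hochberg, 0.05), checked on simulated data. Well above background were 10731 to 13384 probes on the Aohan arrays and 11053 to 12962 on the small tail Han arrays. Gene names came from RefSeq accessions found in assembly ARS-UI_Ramb_v3.0 for 734 of 758 probes. In lists the brightest probe stood for a gene. The summed level of a list is log2 of the sum of its scaled signals. Where nothing else is said, samples are single animals.

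The genes, lists and tests were chosen with earlier results of these data known, and the other P450 genes and NADPH suppliers were added from the names on the array after the files were read. One result is not reported here. The genes named are the 5 enzymes at every probe, the listed genes that passed with up to 3 others of smallest p per list, and the 5 genes nearest to CYP1A1. SOD2 and the marker genes named were chosen after their values were seen. Alternatives were quantile normalization, normexp (offset 50, on spot medians), the series matrix, other filters, no trend, the methods' t-test, a block by replicate number, any probe of a gene, leaving out each array and, added after seeing the data, unscaled signals. Figures used matplotlib 3.10.9.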

Additional observations from a re-analysis of the deposited data

How the results depend on the processing

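Over the alternatives tried, no change of the 5 genes turned its sign. Only quantile normalization, normexp, the series matrix and unscaled signals could have turned one. The breeds do not overlap at these probes, so leaving out an array could not, and filters and the block do not alter a change. With normexp the change was -3.38 for CYP1A1 and -2.42 for LOC101104557. On unscaled signals, with no 75th percentile subtracted, it was -4.50 for CYP1A1, -3.86 for LOC101104557, -1.38 for ALDH1A1, -1.03 for CYP3A24, and 1.12 and 0.85 for the UGT1A9 probes, where all probes had a median of -0.49. Leaving out each array in turn gave -4.13 to -3.79 for CYP1A1, -3.60 to -3.21 for LOC101104557, -1.05 to -0.59 for ALDH1A1, -0.66 to -0.23 for CYP3A24, and 1.11 to 2.05 and 0.88 to 1.75 for the UGT1A9 probes.

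The count of probes that passed, 1893, was 712 by the methods' t-test, and between 767 (without small tail Han replicate 2) and 2239 when each array was left out, and it was 1082 without Aohan replicate 3 and 942 without small tail Han replicate 3. On unscaled signals 83 passed as higher and 2124 as lower, against 945 and 948 with scaling. The pathway genes that passed as lower, 2, were 5 on unscaled signals and 1 under the filter on all 6 arrays, which leaves TTR out, and 1 to 2 when each array was left out, with DGAT1 lost. With normexp they were 3, with PTGS2 added at -0.54 (limma adjusted p = 0.0321). No pathway gene with a RefSeq name passed as higher under any alternative. SOD2, which lay higher in Aohan sheep, has no such name here and was not counted. The replicate numbers do not pair the sheep. Deviations of same-numbered sheep correlated at -0.22, -0.37 and 0.28. With the replicate number as a block 1234 probes passed and 1 pathway gene as lower, DGAT1 being lost (adjusted p = 0.0715). LOC101104557 has no value under the filter on all 6 arrays. The dim Aohan signals of LOC101104557 and TTR limit the size of their folds.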
